A study of Homo sapiens with 183 samples.

Results

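The 6 genes described here, TCP1, CCT2, CCT3, CCT4, CCT5 and CCT7, encode subunits of the cytosolic chaperonin CCT (also called TRiC), and their mRNA levels were read from all 183 libraries of the series. They were chosen by name, with earlier results of these data known, and are 6 of the 19875 gene names that every deposited table holds. All 6 passed the low-expression filter (mean TPM of 1 or higher) in every fit. CCT6A, CCT6B and CCT8, the other CCT genes with values, are described separately below. TPM, which scales transcript abundance to a fixed total, divides by transcript length, so that the levels of different genes can be set side by side within a library. Each library adds up to 1e+06 TPM, so read depth is unknown, and in its place 11292 to 14024 genes reached 1 TPM per library. Changes are given as log2 fold changes on log2(TPM + 1), with the standard error (SE) of the limma fit.

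The study knocked out the transcription factor KLF5, the AAA+ ATPases RUVBL1 and RUVBL2 and several other genes with CRISPR-Cas9 in the pancreatic cancer lines AsPC-1, BxPC-3, T3M-4, CFPAC-1 and SUIT-2, and collected RNA on day 5. All these cells, the controls included, carried Cas9 and an sgRNA, and the control was an sgRNA against the ROSA26 locus (sgRosa). The knockout arms were sgKLF5, sgRUVBL1, sgRUVBL2, sgCDK1, sgRPA3, sgCHD4 and sgSERPINB5, in 1 to 4 experiments a line, with 2 to 6 libraries a group. For 24 h, AsPC-1 and T3M-4 cells that stably expressed an empty vector (EV), RUVBL1 A62T or RUVBL2 dF109 received CB-6644, an inhibitor of the RUVBL1/2 ATPase, or DMSO. Each vector had 3 CB-6644 libraries and 1 DMSO library a line, and the 3 DMSO libraries of a line served together as its control. The 4 non-pancreatic lines T84 (colorectal carcinoma), A-375 (melanoma), H1048 (small cell lung cancer) and RH30 (rhabdomyosarcoma) received CB-6644 or DMSO for 24 h as parental cells, with 4 libraries an arm. Per the methods, where they state it, the sgKLF5, sgRUVBL1, sgRUVBL2 and sgRosa arms each mix libraries of a pair of independent sgRNAs, and the libraries of an sgRNA are called biological replicates. The labels name neither the sgRNA of a library nor separate cultures, so the p-values measure the spread between libraries, sgRNAs included. In bulk RNA, fewer cells with a transcript and less of it in each cell cannot be told apart.

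CCT is a double ring in which different but related subunits, each the product of its own gene, bind ATP and fold proteins that enter the central cavity. Actin and tubulin are its best known clients, and WD-repeat proteins such as CDC20 also depend on it. A complete ring needs all of its subunits, and their mRNAs are abundant in growing cells. TCP1 encodes the alpha subunit, CCT2 the beta, CCT3 the gamma, CCT4 the delta, CCT5 the epsilon and CCT7 the eta subunit. In GENCODE v44 (hg38), CCT3 lies at chr1:156308968-156367873 (minus strand), CCT4 at chr2:61868085-61888671 (minus), CCT7 at chr2:73233420-73253021 (plus), CCT5 at chr5:10249929-10266389 (plus), TCP1 at chr6:159778498-159789703 (minus) and CCT2 at chr12:69585426-69601570 (plus). The values sum all transcripts of a gene, exons and UTRs included. TCP1 overlaps ACAT2, and CCT3 overlaps TSACC, on the opposite strand, and the library kit did not keep the strand, so reads in the overlaps cannot be assigned with certainty.

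The bases upstream of TCP1, CCT2, CCT3 and CCT7 are shown. CCT2 and CCT3 were lower with CB-6644 in all 6 comparisons of parental or EV cells. CCT4 and CCT5, whose bases are not shown, were lower in all 6 as well. In TPM, TCP1 and CCT7 changed least of the 6 in each, though TCP1 lay close to CCT3 in T3M-4. The bases come from RefSeq (GRCh38.p14), 5′ to 3′ along the gene's strand, and hold no annotated exon. The capitals mark the letters GGGCGG (a GC box) or CCAAT on either strand.
TCP1: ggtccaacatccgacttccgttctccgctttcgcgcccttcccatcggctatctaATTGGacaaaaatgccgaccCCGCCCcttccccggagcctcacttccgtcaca
CCT2: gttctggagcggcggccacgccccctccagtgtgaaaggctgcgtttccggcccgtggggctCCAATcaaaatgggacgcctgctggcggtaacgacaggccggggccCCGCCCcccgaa
CCT3: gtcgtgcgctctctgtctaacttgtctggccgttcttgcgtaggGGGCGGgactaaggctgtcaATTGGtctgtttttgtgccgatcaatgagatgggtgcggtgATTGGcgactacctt
CCT7: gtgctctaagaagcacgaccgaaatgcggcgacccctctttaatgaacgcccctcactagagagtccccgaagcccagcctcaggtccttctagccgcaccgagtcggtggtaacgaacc
The TCP1 stretch is chr6:159789704-159789811 (minus strand), the CCT2 stretch chr12:69585306-69585425 (plus), the CCT3 stretch chr1:156338312-156338431 (minus) and the CCT7 stretch chr2:73234116-73234235 (plus), ending 101, 33, 19 and 72 bases before the RefSeq start. In the 250 bases before the start, searched on both strands, TCP1, CCT2 and CCT3 held both GGGCGG, present in 56.7% of 14715 RefSeq promoters, and CCAAT, present in 34.4%. GAANNTTC, letters of a heat shock element, occurred in TCP1 and before an alternative start of CCT2, against 4.65% of promoters. CCGGAAG, an ETS motif, occurred before CCT2 alone, against 11.9%. CACGTG (an E-box, 7.86%) and GGGTGTGG (the CACCC motif that KLF factors bind, 3.02%) occurred before none of the 6 genes. CCT4, CCT5 and CCT7 held none of the 6 motifs in these windows. Whether these letters bear on the changes with CB-6644 was not tested.

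Control libraries differed in which subunit mRNA was most abundant. They pool the sgRosa libraries of all experiments of a line and, in AsPC-1 and T3M-4, the DMSO libraries of the EV, A62T and dF109 cells. The SD of such a line thus includes differences between experiments. CCT7 in AsPC-1 sgRosa, for example, was at 545 to 587 TPM in experiment 2 and at 428 to 452 TPM in experiment 3. In AsPC-1, CCT7 was highest in all 17 control libraries at 503 ± 52.5 TPM (SD, n = 17), and TCP1 and CCT2, at 238 and 227 TPM, took the last places without a fixed order between them. In BxPC-3, CCT5 led in all 6 control libraries at 513 ± 39.7 TPM (SD, n = 6). In T3M-4, CCT5 at 606 ± 50 TPM (SD, n = 9) and CCT3 at 545 ± 34.1 TPM (SD, n = 9) shared the first places.

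CCT3 led in every control library of CFPAC-1 (454 ± 40.7 TPM, SD, n = 4), A-375 (734 ± 16.4 TPM, SD, n = 4) and H1048 (828 ± 11.3 TPM, SD, n = 4). In SUIT-2 it was at 333 ± 62 TPM (SD, n = 4) and shared the top places with CCT7. TCP1 and CCT3 shared the first places in T84, at 641 ± 21.9 TPM (SD, n = 4) and 651 ± 6.44 TPM (SD, n = 4). TCP1 stood last in every control library of CFPAC-1, SUIT-2 and A-375. RH30 had the highest level of any subunit mRNA, CCT7 at 1250.0 ± 19.9 TPM (SD, n = 4), where the other 5 ran from 305 (CCT5) to 534 TPM (CCT2). The summed level of the 6 mRNAs ran from 1221 to 2553 TPM over the control libraries of the pancreatic lines and from 2966 to 3407 TPM over those of the non-pancreatic lines, with no overlap. The tables were made separately, so levels set across them carry any difference in processing.

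As a check of the labels, epithelial markers (EPCAM, CDH1, KRT8, KRT18, KRT19) were all at 1 TPM or more in the controls of the 5 pancreatic lines, T84 and H1048. In A-375 and RH30, which are not epithelial, 2 of these 5 were. All 5 skeletal muscle markers were present in RH30 and none in the other lines, 4 of 5 tuft cell markers in H1048 (TRPM5 was under 1 TPM), all 3 intestinal markers in T84 and 3 of 5 melanocytic markers in A-375 (PMEL and TYR were under 1 TPM). Except for muscle, other lines reached the same counts (tuft in BxPC-3, T3M-4 and T84, intestinal in AsPC-1 and CFPAC-1, melanocytic in H1048). The summed level set H1048 apart for the tuft markers (803 to 864 TPM, at most 118 TPM elsewhere) and A-375 for the melanocytic ones (251 to 257 TPM, at most 31.7 TPM elsewhere), while the intestinal sum of T84 (1090 to 1190 TPM) lay close to the highest of AsPC-1 (1070 TPM). Of 6 fibroblast and blood cell markers 1 to 4 reached 1 TPM, and DCN and CD3E did so in no line. RUVBL1 mRNA averaged 31.5 to 50.0 TPM in the sgRUVBL1 groups and 84.2 to 162 TPM in their sgRosa groups, and RUVBL2 mRNA 42.1 to 94.0 TPM against 97.8 to 222 TPM. KLF5 and CHD4 mRNA were not lower in their knockouts, which does not check those labels, since cutting need not lower the mRNA. In CFPAC-1, CDK1 mRNA was 194 to 207 TPM in the libraries labelled sgCDK1 and 206 to 236 TPM in sgRosa. It was 81.0 to 91.9 TPM in the libraries labelled sgRPA3. Since cutting need not lower the mRNA, this does not settle whether these labels are right, and they stay in doubt. The CFPAC-1 values of these arms are therefore given as those of the libraries so labelled.

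CB-6644 lowered most of the 6 mRNAs in the 4 non-pancreatic lines. CCT2, CCT3, CCT4 and CCT5 were lower in each of T84, A-375, H1048 and RH30, while CCT7 stayed near its DMSO level in all but RH30. Of the 24 combinations of gene and line, 20 were lower and none was higher (limma, Benjamini-Hochberg adjusted p under 0.05 over all genes tested). Over all genes, 24.2% were lower in T84, 29.7% in A-375, 24.0% in H1048 and 27.3% in RH30. Higher were 47.2%, 51.5%, 53.9% and 50.4% in the same order, and the median change over all genes was 0.13 to 0.18 (log2), so the typical gene rose in TPM while these fell.

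CCT2, the beta subunit, fell furthest in A-375, with DMSO libraries at 607, 592, 594 and 593 TPM and CB-6644 libraries at 407, 392, 383 and 397 TPM. The groups lay far apart, and the mean fell by 33.9%, a log2 fold change of -0.60 (SE 0.02, limma adjusted p = 1.01e-09). In T84 it was at 563, 575, 579 and 608 TPM in DMSO and 455, 454, 427 and 467 TPM in CB-6644, where the mean fell by 22.4%, again without overlap. In H1048 the DMSO libraries were at 539, 542, 566 and 539 TPM and the CB-6644 libraries at 445, 456, 429.6 and 442 TPM, all lower. In RH30 the values were 527, 519, 544 and 545 TPM against 423, 417, 429 and 428 TPM. The log2 fold changes of CCT2 in T84, H1048 and RH30 were -0.37 (SE 0.04, limma adjusted p = 4.86e-07), -0.30 (SE 0.03, limma adjusted p = 7.50e-07) and -0.33 (SE 0.02, limma adjusted p = 4.80e-08).

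CCT5, the epsilon subunit, and CCT3, the gamma subunit, changed by amounts close to those of CCT2. CCT5 went from 521, 515, 495 and 505 TPM in the A-375 DMSO libraries to 351, 348, 341 and 336 TPM in CB-6644, a log2 fold change of -0.56 (SE 0.02, limma adjusted p = 2.10e-09). It was -0.37 in T84, -0.40 in H1048 and -0.31 in RH30 on the same scale, with CB-6644 libraries below every DMSO library in all 4 lines. CCT3 went from 825, 844, 827 and 817 TPM to 644, 636, 629 and 642 TPM in H1048, a log2 fold change of -0.38 (SE 0.02, limma adjusted p = 2.29e-08). In A-375 it was -0.50, in T84 -0.38 and in RH30 -0.29. CCT4, the delta subunit, moved less, at -0.41 in A-375, -0.22 in T84, -0.20 in H1048 and -0.17 in RH30, and its groups did not overlap in any of the 4.

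TCP1 and CCT7 changed least. TCP1 was at 613, 663, 636 and 654 TPM in the T84 DMSO libraries and 648, 641, 621 and 650.3 TPM in CB-6644, which overlapped, with a log2 fold change of 0.00 (SE 0.04, limma adjusted p = 0.954). In A-375, H1048 and RH30 it was lower, at -0.13 (SE 0.03, limma adjusted p = 0.00121), -0.15 (SE 0.03, limma adjusted p = 0.000294) and -0.08 (SE 0.02, limma adjusted p = 0.0101). CCT7 was at 676, 661, 660.2 and 662 TPM in A-375 with DMSO and 674, 685, 667 and 671 TPM with CB-6644. Those groups overlapped, with a log2 fold change of 0.02 (SE 0.02, limma adjusted p = 0.342), while CCT7 in T84 (-0.01) and H1048 (0.00) also missed the threshold. In RH30, where it is most abundant, CCT7 went from 1252, 1223, 1270.5 and 1254 TPM to 1211, 1208, 1179 and 1176 TPM, a log2 fold change of -0.07 (SE 0.02, limma adjusted p = 0.0116).

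With the libraries scaled by the median of ratios, which sets the typical gene to no change, all 24 combinations were lower. Shares of all genes were computed without scaling, here and below, so counts of CCT genes after scaling have no matching background. TCP1 then lay between -0.36 and -0.19 and CCT7 between -0.24 and -0.20 (log2) in the 4 lines. CCT7, level in TPM in T84, A-375 and H1048, was lower there relative to the typical gene. The size of the effect differed between the lines for all 6 genes (limma, moderated F of the line by treatment interaction), from adjusted p = 1.29e-07 for CCT2 to 0.0382 for CCT7. By the same test 86.2% of all genes differed between the lines, and for CCT2, CCT3, CCT4 and CCT5 the largest changes were those of A-375.

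**Figure D1:**
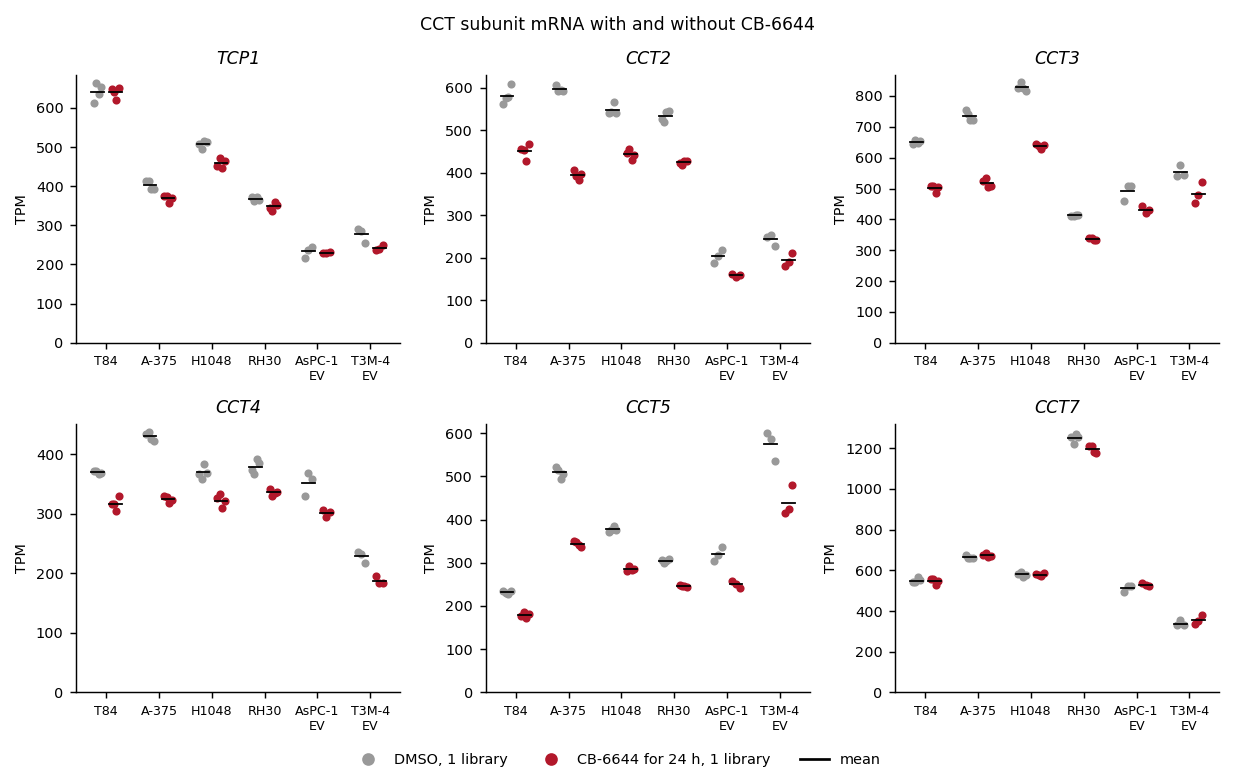
TPM of each CCT subunit mRNA (vertical axis, from 0) in the 4 non-pancreatic lines and in AsPC-1 and T3M-4 cells with the empty vector (horizontal axis). Grey points are DMSO libraries, red points libraries after 24 h of CB-6644 and bars are means; in AsPC-1 and T3M-4 the grey points are the 3 DMSO libraries of the line, 1 for each vector. In the CCT2 panel all red points lie below the grey ones in each of the 6 lines, and in the CCT7 panel they do so in RH30 alone.

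The same genes fell with CB-6644 in the pancreatic lines carrying the empty vector. In AsPC-1 and in T3M-4, CCT2, CCT3, CCT4 and CCT5 were lower than in the DMSO libraries, TCP1 and CCT7 missed the threshold, and none was higher (8 of 12 combinations, limma). Of all genes, 17.2% were lower and 47.2% higher in AsPC-1, and 15.2% and 19.1% in T3M-4. In AsPC-1 CCT2 was at 162, 155 and 159 TPM in the EV CB-6644 libraries and at 218 (EV), 187 (A62T) and 204 (dF109) TPM in the DMSO libraries, with all treated libraries lower. Its log2 fold change was -0.35 (SE 0.06, limma adjusted p = 0.000253). CCT5 in AsPC-1 was at 258, 252 and 241 TPM against 336 (EV), 305 (A62T) and 317 (dF109) TPM, again apart, with a log2 fold change of -0.35 (SE 0.05, limma adjusted p = 0.000108). CCT3 and CCT4 changed by -0.19 and -0.22.

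In T3M-4 the EV CB-6644 libraries held CCT2 at 181, 189.9 and 210.4 TPM and the DMSO libraries at 228 (EV), 248 (A62T) and 253 (dF109) TPM, which did not overlap. The log2 fold change was -0.33 (SE 0.07, limma adjusted p = 0.00482). CCT5, which shared the first places with CCT3 in this line, was at 414, 423 and 479.8 TPM against 534 (EV), 599 (A62T) and 587 (dF109) TPM, lower in every treated library (-0.39, SE 0.08, limma adjusted p = 0.00425). CCT3 and CCT4 changed by -0.20 and -0.28, and the call on CCT3 was lost in 8 of the fits with 1 library of the line left out, EV CB-6644 replicate 1 or 2 among them (adjusted p up to 0.126, limma). TCP1 came nearest to the threshold among the others at -0.19 (SE 0.07, limma adjusted p = 0.0568). CCT7 was at 338, 352 and 379 TPM with CB-6644 against 329.7 (EV), 329 (A62T) and 354 (dF109) TPM with DMSO, a log2 fold change of 0.08. Scaled by the median of ratios, all 6 were lower in AsPC-1, and in T3M-4 TCP1, CCT2, CCT4 and CCT5 were lower while CCT3 no longer passed. Against the EV DMSO library alone, 6 of the 12 combinations were lower.

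RUVBL1 A62T and RUVBL2 dF109 are variants that make cells resistant to this inhibitor. In the variant cells CB-6644 libraries lay below DMSO in 10 of 24 combinations of gene, line and vector, and above in none (limma). In AsPC-1, A62T cells had CCT2 lower at -0.23 (SE 0.06, limma adjusted p = 0.0311) and no other CCT gene past the threshold, while 1.98% of all genes were lower. In AsPC-1 dF109 cells CCT2 (-0.19) and CCT5 (-0.24) were lower, against 4.1% of all genes. In T3M-4 A62T cells CCT2, CCT3, CCT4, CCT5 and CCT7 were lower, at -0.19 to -0.29, against 4.6% of all genes, and in T3M-4 dF109 cells CCT3 (-0.25) and CCT5 (-0.29) were, against 3.34%. The 10 combinations became 6 without A62T CB-6644 replicate 1 or 3 or dF109 CB-6644 replicate 2 of T3M-4, and 4 without the dF109 DMSO library of T3M-4. With median-of-ratios scaling 21 of the 24 were lower, since the typical gene rose by 0.10 to 0.33 (log2) in these comparisons. The shares of all genes above do not apply to this count.

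Variant and EV cells were also compared with each other within the CB-6644 libraries. CCT7 was lower in the variant cells in all 4 comparisons, at -0.17 (A62T) and -0.14 (dF109) in AsPC-1 and -0.26 and -0.22 in T3M-4 (limma adjusted p = 0.00517, 0.0173, 0.00706 and 0.0229). In AsPC-1 it was at 469, 472 and 471 TPM in A62T cells and 538, 529.9 and 522 TPM in EV cells, which did not overlap. After scaling, CCT7 passed in T3M-4 (-0.55 and -0.47) and not in AsPC-1 (-0.04 and -0.07). CCT5 was higher in AsPC-1 A62T cells (0.22), CCT2 (0.16) and CCT4 (0.15) in AsPC-1 dF109 cells, and CCT4 (0.22) in T3M-4 dF109 cells. These are 8 of 24 combinations, and over all genes 51.1% and 47.2% (AsPC-1, A62T and dF109) and 50.6% and 34.6% (T3M-4) differed, so the share of CCT genes was not above the background. The 5 calls in dF109 cells, CCT7 of both lines included, were each lost in 3 to 7 of the fits with 1 library left out. The count was 5 without dF109 CB-6644 replicate 1 or EV CB-6644 replicate 1 of AsPC-1. Scaling turned CCT4 in T3M-4 dF109 cells to -0.03. When the change in each vector was taken against that vector's own DMSO library, the difference between variant and EV passed in 2 of 24, CCT2 (0.34) and CCT5 (0.36) in AsPC-1 A62T cells, with adjusted p = 0.0269 and 0.0213 (limma). These 2 rest on 1 DMSO library a vector, and the share of all genes that passed in the same way was not computed. The shares above belong to the direct comparison of variant and EV cells.

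A ratio of 2 of the mRNAs within a library does not depend on how libraries are scaled. These ratios were chosen after the values had been seen and are given with no test. CCT7 over CCT2, as a log2 ratio of TPM, was 0.41 to 0.53 in the T3M-4 DMSO libraries and 0.85 to 0.90 in the EV CB-6644 libraries, while the A62T (0.47 to 0.52) and dF109 (0.43 to 0.53) CB-6644 libraries overlapped the DMSO range. In AsPC-1 the ratio averaged 1.34 in DMSO, 1.74 in EV CB-6644, 1.44 in A62T and 1.44 in dF109 libraries. By this ratio the variant cells lay nearer to DMSO than to EV. TCP1 over CCT2 averaged 0.19 in DMSO, 0.32 in EV CB-6644, 0.27 in A62T and 0.28 in dF109 libraries of T3M-4. There the variant cells lay nearer to EV, and every dF109 library lay above every DMSO library. In AsPC-1 these means were 0.20, 0.54, 0.31 and 0.34, with the variant cells nearer to DMSO. Even so, every AsPC-1 A62T (0.26 to 0.35) and dF109 (0.33 to 0.36) library lay above every DMSO library (0.18 to 0.22). In the non-pancreatic lines mean CCT7 over CCT2 went from -0.08 to 0.28 in T84 and from 0.16 to 0.77 in A-375. It went from 0.09 to 0.39 in H1048 and from 1.23 to 1.49 in RH30, with no overlap in any line. Parental and EV libraries treated with CB-6644 thus held more CCT7 mRNA for each CCT2 mRNA. The treated variant libraries of T3M-4 did not stand apart from DMSO in this ratio. Mean TCP1 over CCT2 rose as well, from 0.14 to 0.51 in T84 and from -0.57 to -0.097 in A-375. It went from -0.105 to 0.049 in H1048 and from -0.54 to -0.28 in RH30, again with no overlap in any line.

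**Figure D2:**
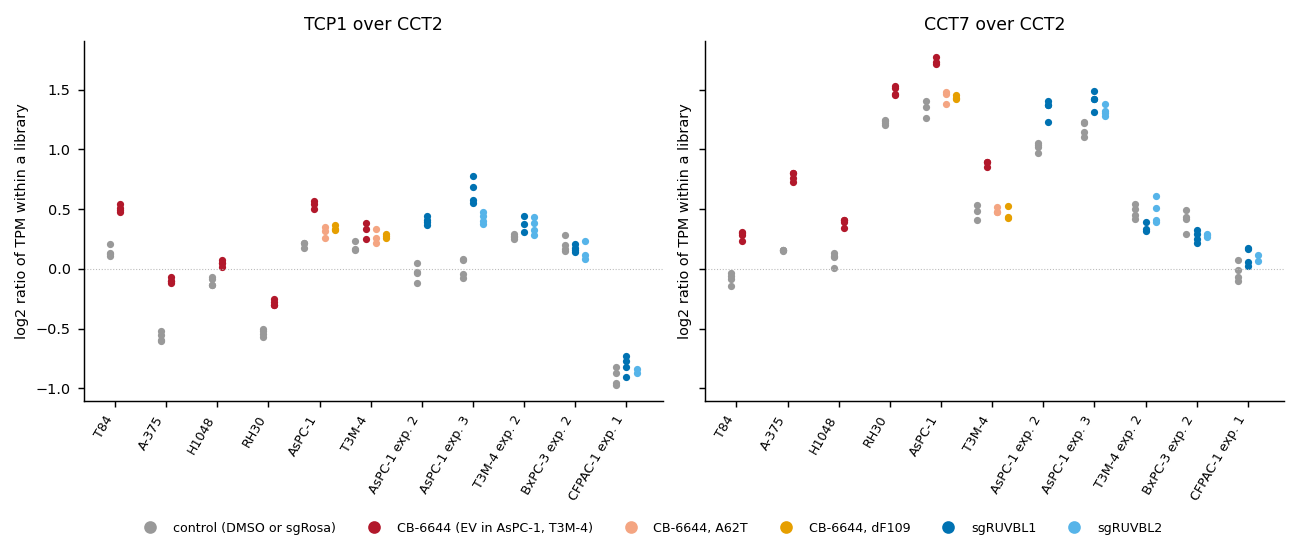
Log2 ratio of TPM within each library (vertical axis) of TCP1 over CCT2 (left) and CCT7 over CCT2 (right), by line and experiment (horizontal axis). Each point is 1 library: grey for controls (DMSO or sgRosa), red for CB-6644 in parental or EV cells, light orange and dark orange for CB-6644 in A62T and dF109 cells, dark and light blue for sgRUVBL1 and sgRUVBL2. On the right, red lies above grey in every line with CB-6644, and on the left, blue lies above grey in both AsPC-1 experiments (0.37 to 0.44 against -0.12 to 0.05 in experiment 2).

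Knockout of RUVBL1 or RUVBL2 gave no single pattern across the pancreatic lines. All 6 mRNAs were lower in T3M-4, none passed the threshold in BxPC-3 or CFPAC-1, and in AsPC-1 CCT2 was lower with sgRUVBL1 in experiment 2, and in experiment 3 by a call that single libraries decide, while TCP1 was higher in experiment 3. In T3M-4 the summed level of the 6 was 1813, 1817 and 1802 TPM in sgRUVBL1, 1780.3, 1815, 1823 and 1733 TPM in sgRUVBL2 and 2395, 2362, 2066 and 2252 TPM in sgRosa, with every knockout library below every control. CCT5 fell furthest, from 633, 621, 532 and 616 TPM to 439, 434 and 440.3 TPM in sgRUVBL1, a log2 fold change of -0.45 (SE 0.06, limma adjusted p = 6.51e-06). In sgRUVBL2 it was at 449, 432, 442 and 430.0 TPM (-0.45, SE 0.05, limma adjusted p = 3.02e-06).

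CCT7, which CB-6644 left near its DMSO level in T3M-4, was at 355, 347, 313 and 353 TPM in sgRosa and 258, 252 and 256 TPM in sgRUVBL1, lower in every library (-0.42, SE 0.06, limma adjusted p = 1.24e-05). In sgRUVBL2 its log2 fold change was -0.38. The other 4 changed by -0.18 (TCP1) to -0.29 (CCT2) in sgRUVBL1 and by -0.24 (CCT4) to -0.38 (CCT2) in sgRUVBL2. These are 6 of 6 lower in each (limma), where 14.6% of all genes were lower and 45.9% higher in sgRUVBL1, and 15.2% and 39.3% in sgRUVBL2. The median of all genes rose by 0.25 and 0.19 (log2), and after scaling all 6 were lower in both. The call on TCP1 in sgRUVBL1 was lost without sgRosa replicate 1 or 2 or sgRUVBL1 replicate 1 or 3 (adjusted p up to 0.0888, limma). The fit holds 3 sgRUVBL1 libraries, since the authors left 1 out for its low library concentration.

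In AsPC-1 experiment 3, TCP1, the alpha subunit, was at 205, 202, 192 and 194 TPM in sgRosa, 285, 293, 269 and 267 TPM in sgRUVBL1 and 248, 282, 251 and 244 TPM in sgRUVBL2. Every knockout library lay above every control, with log2 fold changes of 0.49 (SE 0.05, limma adjusted p = 8.16e-07) and 0.37 (SE 0.05, limma adjusted p = 3.15e-05). CCT3 (0.21 and 0.16) and CCT4 (0.22 and 0.18) were also higher in sgRUVBL1 and sgRUVBL2. CCT2 was at 193, 191, 203 and 199 TPM in sgRosa and 166, 183, 184 and 179 TPM in sgRUVBL1, lower by limma (-0.15, SE 0.06, limma adjusted p = 0.0394), a call lost without sgRosa replicate 1, 3 or 4 or sgRUVBL1 replicate 1 or 4 (adjusted p up to 0.135). In sgRUVBL2 it was -0.05 and missed the threshold. Over all genes, 36.6% were higher and 15.2% lower in sgRUVBL1, and 32.2% higher and 11.0% lower in sgRUVBL2, with a median of all genes of 0.16 and 0.13. After scaling, TCP1 was still higher (0.31 and 0.20), but CCT3 (0.03 and -0.01) and CCT4 (0.04 and 0.01) no longer passed, and CCT5 was lower in both (-0.26 and -0.23).

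In AsPC-1 experiment 2, CCT2 was at 283, 282, 279 and 273 TPM in sgRosa and 217, 238, 217 and 217 TPM in sgRUVBL1, all lower, a log2 fold change of -0.33 (SE 0.05, limma adjusted p = 2.17e-05). CCT5 was lower too (-0.16, SE 0.04, limma adjusted p = 0.00364), and TCP1 at 0.11 (SE 0.05, limma adjusted p = 0.0838) and the other 3 missed the threshold. Of all genes, 25.8% were lower and 30.0% higher. The within-library log2 ratio of TCP1 over CCT2, again chosen after the values had been seen, was 0.37 to 0.44 in sgRUVBL1 and -0.12 to 0.05 in sgRosa here, and 0.55 to 0.78 against -0.08 to 0.08 in experiment 3. In sgRUVBL2 of experiment 3 it was 0.37 to 0.48, and in sgCDK1 0.21 to 0.24, also above every sgRosa library. In T3M-4 experiment 2 it was 0.31 to 0.44 in sgRUVBL1 and 0.25 to 0.30 in sgRosa, also apart, while sgRUVBL2 (0.28 to 0.43) overlapped sgRosa. In BxPC-3 and CFPAC-1 the sgRUVBL1 and sgRosa ranges of this ratio overlapped. CCT7 over CCT2 moved both ways with sgRUVBL1. In AsPC-1 experiment 2 it was 1.23 to 1.41 against 0.97 to 1.05 in sgRosa. In experiment 3 it averaged 1.41 against 1.17, also apart. In T3M-4 experiment 2 it was lower, at 0.31 to 0.39 against 0.42 to 0.55, the opposite of CB-6644 in EV cells. In BxPC-3 and CFPAC-1 its ranges overlapped.

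In BxPC-3 the 6 mRNAs changed by -0.11 to 0.06 (log2) in sgRUVBL1 and by -0.04 to 0.08 in sgRUVBL2, with 0 of 6 past the threshold in each (limma; 0 and 0 at an unadjusted p under 0.05). CCT5 came nearest in sgRUVBL1 at -0.11 (SE 0.06, limma adjusted p = 0.234). Over all genes, 7.67% were lower and 8.29% higher in sgRUVBL1, and 5.48% and 4.27% in sgRUVBL2. The sgRosa libraries spread widely here, with summed levels of 2303, 2104, 1859 and 1816 TPM against 2062, 1984, 1910.2 and 1821 TPM in sgRUVBL1. In CFPAC-1 the changes ran from -0.11 to 0.03 in sgRUVBL1 and from -0.18 to 0.01 in sgRUVBL2, again 0 of 6 each (0 and 1 at an unadjusted p under 0.05). Of all genes, 37.3% were lower and 6.54% higher in CFPAC-1 sgRUVBL1, 9.26% and 2.83% in sgRUVBL2. The median of all genes fell by 0.20 in CFPAC-1 sgRUVBL1, and after scaling TCP1 (0.22), CCT5 (0.16) and CCT7 (0.25) were higher there.

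Set against each other, sgRUVBL1 and sgRUVBL2 differed in none of the 24 combinations of gene and line (limma; 1 at an unadjusted p under 0.05), where 0.917% of all genes differed (3.71% in AsPC-1, 0.0226% in T3M-4, 0.0323% in BxPC-3 and 0.0235% in CFPAC-1). The differences ran from -0.10 (CCT2) to 0.12 (TCP1) in AsPC-1, both with a standard error of 0.06 or less, and from -0.04 to 0.11 in T3M-4. Differences of this size were not detectable with these libraries.

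**Figure D3:**
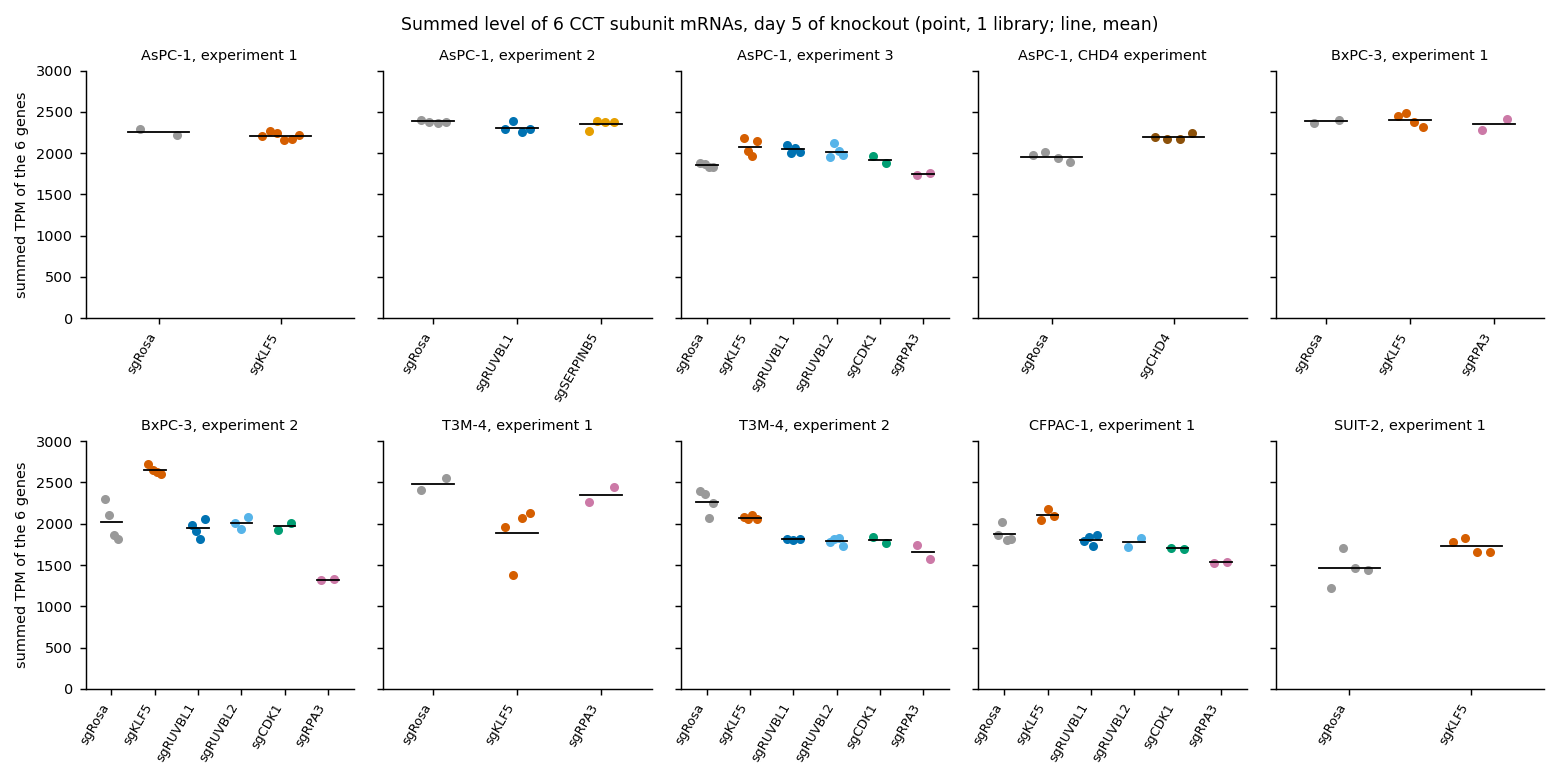
Summed TPM of the 6 CCT subunit mRNAs (vertical axis, from 0) on day 5 in each knockout group (horizontal axis), 1 panel for each line and experiment. Points are libraries and lines are means. In T3M-4 experiment 2 all sgRUVBL1 and sgRUVBL2 libraries (1733 to 1823 TPM) lie below the sgRosa libraries (2066 to 2395 TPM), in BxPC-3 experiment 2 all sgKLF5 libraries lie above them, and 1 sgKLF5 library of T3M-4 experiment 1 stands apart at 1378 TPM.

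KLF5 knockout went with higher levels of these mRNAs in some experiments and not in others. In BxPC-3 experiment 2 all 6 were higher than in sgRosa, where 21.0% of all genes were higher and 13.6% lower (limma). CCT2 was at 461, 445, 434 and 443 TPM in sgKLF5 and 347, 312, 263 and 250.1 TPM in sgRosa, a log2 fold change of 0.62 (SE 0.09, limma adjusted p = 2.41e-05). CCT3 was at 364, 364, 357 and 371 TPM against 287, 269, 227 and 211 TPM (0.56, SE 0.08, limma adjusted p = 3.96e-05). In both genes every sgKLF5 library lay above every sgRosa library. TCP1 (0.46), CCT5 (0.35), CCT7 (0.23) and CCT4 (0.20) rose less, and after scaling 4 of the 6 passed. Without sgRosa replicate 3 or 4 neither CCT4 nor CCT7 passed, and without sgKLF5 replicate 1 or sgRosa replicate 2 CCT4 did not (adjusted p up to 0.0887, limma). In BxPC-3 experiment 1, with 2 sgRosa libraries, the 6 genes changed by -0.06 to 0.09 and 0 passed (limma; 0 at an unadjusted p under 0.05), against 8.1% lower and 8.09% higher of all genes.

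In AsPC-1 experiment 3, TCP1, CCT2, CCT3, CCT4 and CCT7 were higher by 0.15 to 0.19 (log2), 5 of 6, where 15.4% of all genes were higher and 12.3% lower. CCT3 was at 488, 449, 432 and 483 TPM against 400.5, 414, 398 and 403 TPM in sgRosa (0.19, SE 0.05, limma adjusted p = 0.00323), with no overlap. With median-of-ratios scaling 0 of the 6 passed, at 0.08 to 0.18. Without sgKLF5 replicate 1 or 4 CCT3 and 1 other of these 5 passed, and the call on TCP1 was lost in 8 and that on CCT2 in 4 of the fits with 1 library left out (adjusted p up to 0.101, limma). In AsPC-1 experiment 1, with 6 sgKLF5 and 2 sgRosa libraries, changes ran from -0.08 to 0.06 and 0 passed (limma; 0 at an unadjusted p under 0.05), against 8.81% lower and 17.1% higher of all genes. In CFPAC-1, CCT3 (0.22, SE 0.07, limma adjusted p = 0.0365) and CCT7 (0.22, SE 0.05, limma adjusted p = 0.0119) were higher, 2 of 6 against 3.26% of all genes higher and 13.0% lower. CFPAC-1 CCT7 was at 397, 411 and 400.4 TPM in sgKLF5 and 339, 358, 347 and 341 TPM in sgRosa, without overlap, and after scaling 5 of 6 passed. The call on CFPAC-1 CCT3 was lost without sgKLF5 replicate 1, 2 or 3, sgRosa replicate 1, 3 or 4 or either library labelled sgCDK1 (adjusted p up to 0.138, limma), and that on CCT7 without sgKLF5 replicate 2 (0.0553), which leaves 0 of 6.

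T3M-4 was the line in which CCT genes were lower with sgKLF5. In experiment 2, CCT7 was at 272, 274, 279.6 and 269.8 TPM in sgKLF5 and 355, 347, 313 and 353 TPM in sgRosa, all lower (-0.32, SE 0.05, limma adjusted p = 0.000176). CCT5 was lower at -0.17 (SE 0.05, limma adjusted p = 0.0195), which makes 2 of 6 against 11.2% of all genes lower and 23.4% higher, and 4 of 6 after scaling. Without sgRosa replicate 1 or 2 of this experiment 1 of the 6 passed. In experiment 1 the changes ran from -0.60 (CCT5) to -0.20 (CCT3), and 0 passed (limma; 1 at an unadjusted p under 0.05), against 2.46% lower and 3.26% higher of all genes. There sgKLF5 replicate 2 stood apart, with a summed level of 1378 TPM against 1961, 2074 and 2133 TPM in the other sgKLF5 libraries and 2404 and 2553 TPM in sgRosa. Without it TCP1 (-0.35), CCT2 (-0.35), CCT5 (-0.36) and CCT7 (-0.28) were lower. In SUIT-2 the 6 changed by 0.16 (CCT2) to 0.42 (CCT3) and 0 passed (limma; 2 at an unadjusted p under 0.05), against 1.0% lower and 2.94% higher. Its sgRosa replicate 1 was lowest, with a summed level of 1221 TPM against 1441 to 1704 TPM, and without it CCT3 was 0.27 (adjusted p = 0.0552, limma).

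Whether sgKLF5 acts differently in BxPC-3 and T3M-4 was not tested. Where sgRUVBL1 and sgKLF5 shared a fit, they differed in 16 of 24 combinations, and 44.7% of all genes did so (limma; 58.5% in AsPC-1, 44.0% in BxPC-3, 30.9% in CFPAC-1 and 45.8% in T3M-4). In BxPC-3 experiment 2 all 6 were lower in sgRUVBL1 than in sgKLF5, at -0.30 (CCT4) to -0.59 (CCT2). In AsPC-1 experiment 3, TCP1 was higher (0.34) and CCT2 (-0.33) and CCT5 (-0.17) lower in sgRUVBL1. In CFPAC-1, CCT2, CCT3, CCT5 and CCT7 were lower, at -0.19 to -0.28, and in T3M-4, CCT2, CCT3 and CCT5 were lower, at -0.23 to -0.28.

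RPA3, a subunit of the single-strand DNA binding protein RPA, and CDK1, the mitotic kinase, are genes that dividing cells need. In BxPC-3 experiment 2 the sgRPA3 libraries had the lowest summed CCT levels of that experiment, at 1323 and 1326 TPM. All 6 genes were lower than in sgRosa, where 11.6% of all genes were lower and 9.12% higher (limma). CCT2 was at 179 and 168 TPM against 347, 312, 263 and 250.1 TPM, so that the mean fell by 40.8%, a log2 fold change of -0.74 (SE 0.10, limma adjusted p = 0.000190). The other 5 were lower, at -0.43 (CCT4) to -0.63 (TCP1). In T3M-4 experiment 2 all 6 were lower, at -0.35 (CCT4) to -0.54 (TCP1), against 6.2% of all genes lower and 18.4% higher, with TCP1 at 212 and 196 TPM in sgRPA3 and 318, 314, 266 and 287 TPM in sgRosa. Without sgRPA3 replicate 2 the call on T3M-4 CCT4 was lost (adjusted p = 0.0502, limma).

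In the CFPAC-1 libraries labelled sgRPA3, TCP1 (-0.23), CCT2 (-0.31), CCT7 (-0.29) and CCT5 (-0.45, SE 0.06, limma adjusted p = 0.000467) were lower, 4 of 6 against 3.39% of all genes lower and 8.17% higher. Without sgRPA3 replicate 1 or 2 of this line CCT5 alone passed, and the highest adjusted p was 0.249 for TCP1, 0.133 for CCT2 and 0.109 for CCT7 (limma). In AsPC-1 experiment 3 the changes were -0.15 to -0.01 and 0 passed (limma; 1 at an unadjusted p under 0.05), where 0.0164% of all genes were lower and 0.638% higher. In experiment 1 of BxPC-3 (-0.08 to 0.02) and of T3M-4 (-0.15 to 0.00) 0 passed either (limma; 0 and 0 at an unadjusted p under 0.05), with 0.0161% and 0.0% of all genes lower and 0.29% and 0.0% higher. Over the 6 comparisons 16 of 36 combinations were lower, 13 without either of those CFPAC-1 libraries, or 12 of 30 without CFPAC-1. All sgRPA3 groups hold 2 libraries. In the same fits sgRUVBL1 and sgRPA3 differed in 15 of 24 combinations and in 36.7% of all genes (37.6% in AsPC-1, 22.9% in BxPC-3, 47.7% in CFPAC-1 and 38.3% in T3M-4). The CCT genes were higher in sgRUVBL1 in those 15, and 11 of them remained without CFPAC-1.

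In the sgCDK1 libraries of T3M-4 all 6 were lower, at -0.24 (CCT3) to -0.42 (CCT5), against 3.85% of all genes lower and 13.0% higher (limma). CCT5 was at 458 and 439.8 TPM in sgCDK1 and 633, 621, 532 and 616 TPM in sgRosa, without overlap (-0.42, SE 0.07, limma adjusted p = 0.000751). This rests on 2 libraries: 2 of the 6 passed without sgCDK1 replicate 2, and 1 when sgCDK1 and sgRosa were fitted alone. In AsPC-1 experiment 3 TCP1 was higher at 0.24 (SE 0.06, limma adjusted p = 0.0143) and the other 5 missed the threshold, against 10.3% higher and 6.44% lower of all genes. The call on TCP1 was lost without sgCDK1 replicate 1 and with scaling. In BxPC-3 the changes were -0.16 to 0.10 and in the CFPAC-1 libraries labelled sgCDK1 -0.23 to -0.06, with 0 of 6 each (limma; 0 and 2 at an unadjusted p under 0.05). Of all genes, 2.12% were lower and 3.71% higher in BxPC-3 and 0.0% in CFPAC-1.

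sgRUVBL1 and sgCDK1 differed in 2 of 24 combinations (limma), TCP1 (0.25) and CCT4 (0.18) in AsPC-1 experiment 3, where 48.2% of all genes differed. With median-of-ratios scaling 7 differed, none of them among these 2: all 6 genes were higher in sgRUVBL1 than in the CFPAC-1 libraries labelled sgCDK1, by 0.29 (CCT4) to 0.43 (CCT5), and CCT2 was lower in AsPC-1 (-0.32). In BxPC-3 21.6%, in CFPAC-1 43.7% and in T3M-4 29.1% differed, and 35.6% over the 4 lines. The count ran from 0 without AsPC-1 sgCDK1 replicate 2 and 1 without replicate 1 to 4 without sgKLF5 replicate 1 or 3, sgRUVBL1 replicate 3 or sgRUVBL2 replicate 2 of the same fit. In T3M-4 experiment 2 the CCT genes were lower in sgRUVBL1, sgRUVBL2, sgCDK1 and sgRPA3 alike relative to the same sgRosa libraries, which these comparisons share.

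CHD4, the ATPase of the NuRD complex, and SERPINB5, the serpin maspin, were knocked out in AsPC-1 alone. In the CHD4 experiment, CCT2 was at 261, 260.2, 267 and 279.9 TPM in sgCHD4 and 222, 218, 204 and 209 TPM in its sgRosa, all higher, a log2 fold change of 0.32 (SE 0.04, limma adjusted p = 5.95e-05). CCT3 (0.18), CCT5 (0.17), CCT7 (0.16) and CCT4 (0.13) were also higher, and TCP1 at 0.05 was not past the threshold. These are 5 of 6, where 23.3% of all genes were higher and 26.7% lower, and each held without any 1 library. In sgSERPINB5 the 6 changed by -0.07 (CCT4) to 0.03 (TCP1), and 0 passed (limma; 0 at an unadjusted p under 0.05), where 0.0172% of all genes were lower and 0.0172% higher.

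**Figure D4:**
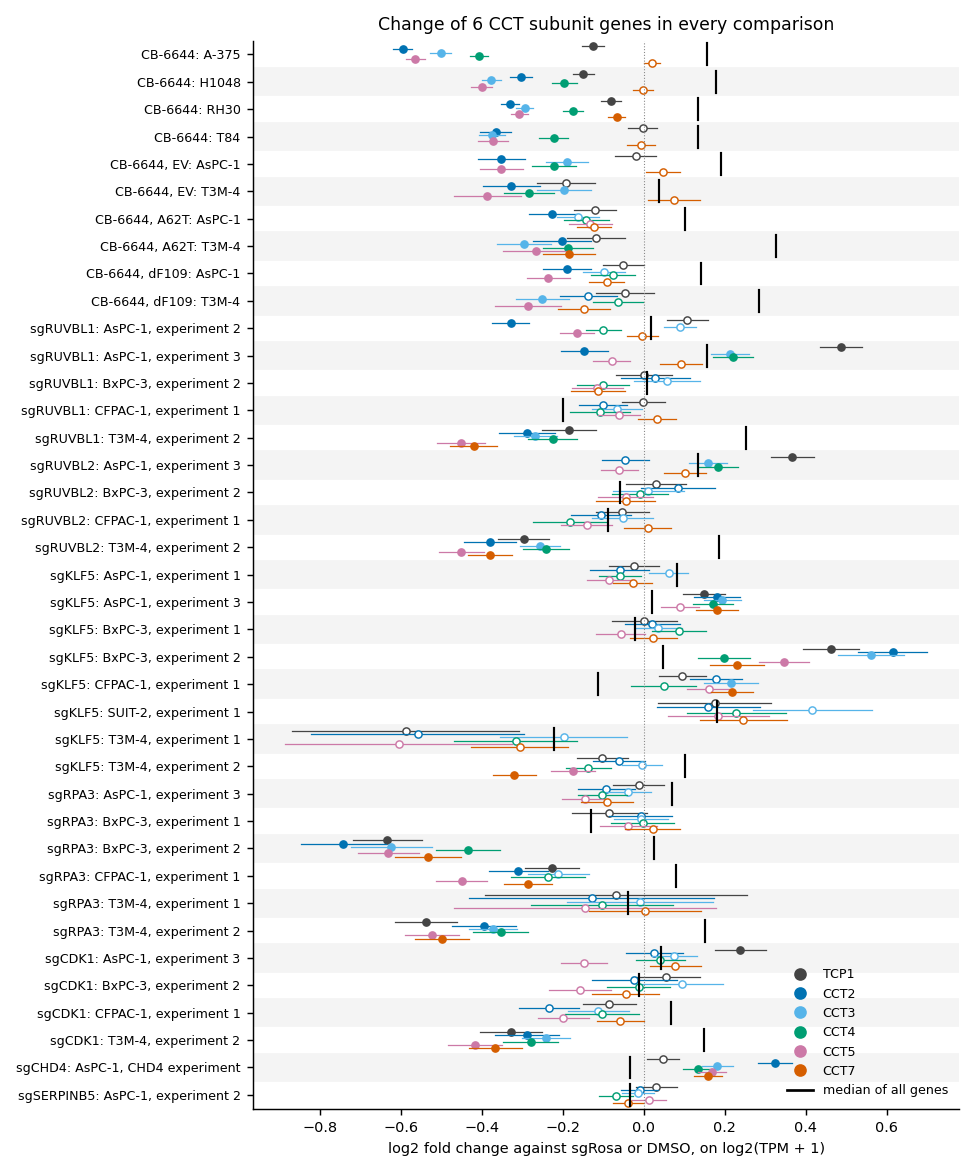
Log2 fold change, on log2(TPM + 1), of the 6 CCT subunit genes (horizontal axis) in each of 39 comparisons with sgRosa or DMSO (rows). Points are colored by gene and filled where the limma adjusted p is under 0.05, lines show 1 standard error on each side, and black bars are the median of all genes. In the CB-6644 rows of the non-pancreatic lines CCT2, CCT3, CCT4 and CCT5 lie left of 0 while the black bars lie at 0.13 to 0.18. The rows of CFPAC-1 sgRPA3 and sgCDK1 are those of the libraries so labelled.

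The other CCT genes with values are CCT6A and CCT6B, alternative zeta subunits of which CCT6B is known from testis, and CCT8, the theta subunit. With CB-6644, CCT6A was lower in T84, A-375, H1048, RH30 and EV cells of AsPC-1 and T3M-4, 6 of 6, with log2 fold changes of -0.13 (H1048) to -0.42 (A-375) by limma. CCT6B, a gene of few TPM, was higher in all 6, by 0.89 (AsPC-1) to 1.72 (RH30). CCT8 was at 0.01 to 0.16 and higher in the 4 non-pancreatic lines, but with scaling it lay below 0 in all 6, at -0.26 (AsPC-1) to -0.04 (T84). In the sgRUVBL1 fits CCT6B was higher by 0.71 to 1.46 in the 4 where it was tested, and CCT6A, whose direction scaling did not turn under CB-6644, was lower in AsPC-1 experiment 2 (-0.30) and T3M-4 (-0.37). CCT8 was named after its values had been seen.

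Among the partners of the chaperonin, prefoldin hands unfolded actin and tubulin to CCT, and phosducin-like proteins act on CCT as co-chaperones. The counts of these and the client genes stand beside a background of 15.2% (T3M-4) to 29.7% (A-375) of all genes lower and 19.1% (T3M-4) to 53.9% (H1048) higher in the same 6 comparisons. Of the 6 prefoldin genes, 3 were lower and 3 higher with CB-6644 in A-375 and in RH30, 2 lower and 2 higher in H1048, 3 lower and 2 higher in T84, 2 lower and 1 higher in AsPC-1, and 3 lower and 0 higher in T3M-4. PFDN4 was lower in all 6 comparisons, at -0.28 to -0.66, and PFDN1 was higher in 5, by 0.09 to 0.70, though with scaling in T84 (0.29) and A-375 (0.48) alone and below 0 in AsPC-1, T3M-4 and RH30. Of the 3 or 4 phosducin-like genes tested, 1 to 3 were lower and 0 to 2 higher in each, and PDCL3 was lower in all 6, at -0.46 to -0.77, and of the 2 genes of the mitochondrial chaperonin the one named Hsp60 in the tables was lower in all 6, at -0.30 to -0.71, and Hsp10 in A-375, H1048 and RH30. Of 5 tubulin folding cofactors, 2 or 3 were lower in each comparison and 0 to 2 higher, led by TBCB in AsPC-1 (-0.75).

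Of 13 actin and tubulin genes, whose proteins CCT folds, 4 to 9 were lower and 3 to 6 higher with CB-6644. ACTB (-0.73 to -1.22), ACTG1 (-0.62 to -0.96) and TUBB (-0.68 to -1.26) were lower in all 6 comparisons, and TUBA4A was higher in all 6, by 0.63 to 2.46. ACTB, ACTG1 and TUBB were named after their values had been seen. Of 5 WD-repeat and related clients, 2 to 4 were lower and 0 to 2 higher. CDC20, which activates the anaphase-promoting complex, was lower, at -0.63 to -1.54 and MLST8, a subunit of mTOR complexes, at -0.62 to -0.90 in all 6. Of the transcription factors HSF1 and MYC, both known to act on chaperonin genes, MYC was lower in all 6 (-0.75 to -1.39), and HSF1 was higher in A-375, AsPC-1 and H1048 (0.24 to 0.38) but with scaling in A-375 alone (0.14). The part of these genes in the CCT values was not tested.

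Over all 183 libraries, each taken as the difference from the mean of the control libraries of its fit, the 6 mRNAs moved together to different degrees. As a description with no test, since libraries share controls, Pearson's r between pairs of them ran from 0.619 (CCT2 with CCT7) to 0.931 (CCT2 with CCT5). With the mean of all 6, CCT5 had the highest r (0.949) and CCT7 the lowest (0.796). Each member is part of this mean, which raises its r, so these values do not compare directly with those of the following genes. Of the other CCT genes CCT6A had 0.918 and CCT8 0.525. Leaving out the CCT genes, the 5 most like the mean of the 6 among the 9564 genes tested in every fit were STIP1 (0.888), Hsp60 (0.851), FARSB (0.847), MRPL3 (0.829) and RAN (0.820). STIP1 encodes the Hsp70 and Hsp90 organizing co-chaperone, FARSB a subunit of phenylalanyl-tRNA synthetase, MRPL3 a mitochondrial ribosomal protein and RAN the GTPase of nuclear transport.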

How the data were processed

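RNA was sequenced as single-end reads of poly-A selected libraries from a kit that does not keep the strand. The authors quantified transcripts with kallisto against hg38, removed transcripts of low abundance (limit not given in the sources used here), summed them to genes with tximport and deposited TPM in 8 tables. Here log2(TPM + 1.0) was fitted with limma 3.58.1 (R 4.3.3, lmFit, eBayes with trend) in 16 fits, each with all arms of a line and experiment, keeping genes whose mean reached 1.0 TPM. Tests were two-sided, adjusted by Benjamini-Hochberg over all genes of the fit, with a threshold of 0.05. Fold changes are on the log2(TPM + 1.0) scale, which understates those of low genes. The CB-6644 effect was compared among the non-pancreatic lines in a further fit. TPM carries no depth, so no count test was possible and the residual degrees of freedom, 5 to 24, set the precision. The test was checked on simulated data.

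Alternatives were median-of-ratios scaling, another pseudocount (0.1), no filter, a minimum of 5.0 TPM, fitting just the arms compared, blocking on replicate number, each vector's own DMSO library, and each library left out in turn. No libraries were identical. The members and gene lists were chosen with earlier results of these data known. All 6 members are described, with full statistics for those past the threshold or nearest to it. Of other lists the named genes are up to 2 with the largest change past the threshold in a comparison, or as stated. Promoters and gene positions came from RefSeq and GENCODE.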

Additional observations from a re-analysis of the deposited data

Results flagged for a closer look

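Of 180 sets of 1 gene in 1 group of libraries that were tested by Dixon's gap, 12 held a library far from the others, where chance gives about 1 in 20. High libraries were sgRUVBL1 replicate 2 of AsPC-1 experiment 2 for CCT2 (238 TPM), sgKLF5 replicate 1 of BxPC-3 experiment 2 for CCT5 (659.9 TPM), DMSO replicate 1 of A-375 for CCT2 (607 TPM) and CCT7 (676 TPM), and DMSO replicate 3 of H1048 for CCT2 (566 TPM). Others in this direction were sgKLF5 replicate 3 of T3M-4 experiment 2 for CCT5 (544 TPM) and sgRosa replicate 2 of SUIT-2 for CCT7 (334 TPM). Low libraries were sgCHD4 replicate 2 for CCT3 (439 TPM), sgKLF5 replicate 4 of AsPC-1 experiment 1 for CCT4 (363 TPM) and of BxPC-3 experiment 2 for CCT7 (443 TPM), sgRosa replicate 3 of T3M-4 experiment 2 for CCT5 (532 TPM) and sgKLF5 replicate 2 of T3M-4 experiment 1 for CCT5 (265 TPM). The last of these had the widest gap, with 498 TPM in the next lowest library of its group.

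The effect of CB-6644 differed between the 4 non-pancreatic lines for all 6 genes (limma interaction, adjusted p = 0.00422 for TCP1, 1.29e-07 for CCT2, 2.95e-06 for CCT3, 3.86e-06 for CCT4, 2.07e-07 for CCT5 and 0.0382 for CCT7), as it did for 86.2% of all genes. In AsPC-1, A62T and EV cells were flagged for CCT2 and CCT5, with differences in the CB-6644 effect of 0.34 and 0.36 (log2). Each was taken against 1 DMSO library a vector, and the share of all genes that differed so was not computed.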

How the results depend on the processing

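The pseudocount and the minimum of 5 TPM cost none of the 143 calls of members, no filter 3, the replicate block 1 of 125, fitting the compared groups alone 24, and median-of-ratios scaling 23 with 2 reversed, CCT3 in AsPC-1 experiment 3 sgRUVBL2 (-0.011) and CCT4 in T3M-4 dF109 against EV cells (-0.032). Taking each vector's own DMSO library cost 8 of 18, the difference of differences 7 of 8, and leaving out 1 library 142 of 2240. Depth is unknown, which limits what TPM of low genes can show. With scaling the counts of members were 4 lower with sgKLF5, 1 higher with sgRUVBL2, 0 higher with sgCDK1, 21 lower in variant cells with CB-6644 and 7 different between sgRUVBL1 and sgCDK1. With only the groups compared they were 1 lower with sgKLF5, 1 with sgCDK1, 10 with sgRPA3, 5 in EV cells and 4 in variant cells with CB-6644. Own DMSO libraries gave 5 lower in variant cells, and the difference of differences 2 between variant and EV cells. sgRUVBL1 and sgCDK1 differed in 3 with a pseudocount of 0.1 or no filter and in 4 with at least 5 TPM. The cause was not tested.

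Replicate numbers did not pair the libraries (correlation of same-numbered deviations -0.46 to 0.49), and with the replicate block 5 members were lower with sgKLF5. With each library left out in turn the counts were 1 to 6 lower and 10 to 15 higher with sgKLF5, 8 to 10 and 3 to 4 with sgRUVBL1, 6 and 3 throughout with sgRUVBL2, 2 to 6 and 0 to 1 with sgCDK1, 13 to 16 lower with sgRPA3 and 5 higher with sgCHD4. With CB-6644 they were 7 to 9 lower in EV cells, 4 to 14 in variant cells and 20 in the non-pancreatic lines. sgRUVBL1 differed in 0 from sgRUVBL2, 0 to 4 from sgCDK1, 13 to 15 from sgRPA3 and 15 to 16 from sgKLF5, variant from EV cells in 5 to 10, and the lines in 5 to 6. Leaving out the CFPAC-1 libraries labelled sgCDK1 and sgRPA3, added after seeing the data, gave 12 lower with sgRPA3 and 11 different between sgRUVBL1 and sgRPA3.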
